A study of Homo sapiens with 6 samples.

Results

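Kinesins are motor proteins that use ATP to move along microtubules, and most human kinesin genes have names that begin with KIF or KIFC. The genes described here are the protein-coding rows of the deposited count table whose symbol is KIF or KIFC followed by a digit. There were 42 such rows among 30949 genes, of which 17152 were protein-coding. The rule used names alone and no measured value. Of the 42 genes, 41 encode motors. The remaining gene, KIF1BP, encodes a protein that binds kinesins and has no motor domain, and it was kept apart from the motor counts. By their known roles, the motors were placed in 4 groups: 13 mitotic, 14 transport, 7 cilium and 7 other kinesins. Unlike the naming rule, these role lists were chosen with earlier results of these data known. KIF2B, also on the mitotic list, had no row in the table and is not analysed here.

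The study grew astrocytes derived from WTC11, a human induced pluripotent stem cell line of wild-type genotype, as floating aggregates inside alginate capsules. ITC capsules received interleukin 1 alpha, TNF alpha and complement C1q together, a mixture known to drive astrocytes into a reactive state, and Vehicle capsules received the carrier alone. RNA was taken 48 hours after treatment from 3 ITC and 3 Vehicle samples, and poly-A selected RNA was sequenced. Capsules came from 3 batches of 1 parental line, each divided between the treatments, so the spread between libraries covers batches of this line and not other lines or donors.

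In dividing cells, kinesins build and separate the spindle poles, move and align chromosomes, organise the central spindle and finish the separation of the daughter cells. The genes of most of these mitotic motors are switched on shortly before division and are quiet in resting cells. Transport kinesins work in dividing and resting cells alike and carry vesicles, mitochondria, lysosomes and RNA along microtubules, which in astrocytes extend into the cell processes. Other kinesins build, shorten or work within the cilium.

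Libraries held 17808993 to 19327421 counts in ITC and 17398921 to 29941685 in Vehicle. Values per library are in CPM, the count of a gene relative to the TMM-scaled size of its library, n is 3 in each group throughout, errors on means are SD, and log2 changes are ITC over Vehicle with their SE. A gene was called where edgeR's quasi-likelihood test gave a Benjamini-Hochberg adjusted p under 0.05 over the 16756 genes tested, of which 39.4% were called, 20.4% higher and 19.0% lower in ITC. The median log2 change of all genes was -0.01, and it was -0.16 under upper quartile scaling and -0.24 with library size alone, where the higher and lower calls were 2662 to 4059 and 2282 to 4804 in place of 3423 to 3176. All 12 astrocyte markers checked had enough counts to be tested, with 3 called higher (SOX9, NFIA and CD44) and 7 lower (AQP4, S100B, SLC1A3, SLC1A2, ALDH1L1, GJA1 and FGFR3). Their summed level was 3500 to 4582 CPM in ITC and 2692 to 3408 CPM in Vehicle. Without SOX9, the most abundant, it was 2621 to 3285 CPM in ITC and 2242 to 2644 CPM in Vehicle, so the groups overlapped. Of 6 microglial markers with a row, ITGAM alone had enough counts for a test and was called higher, at 1.47 ± 0.262 CPM in ITC and 0.142 ± 0.123 CPM in Vehicle (log2 change 3.26 ± 0.66). CSF1R had 18, 8 and 16 counts in ITC libraries and 4, 4 and 8 in Vehicle libraries, while AIF1 and SPI1 had no count in ITC. The summed level of the list was 1.72 to 2.83 CPM in ITC and 0.603 to 0.891 CPM in Vehicle. Without ITGAM it was 0.555 to 1.18 CPM in ITC and 0.557 to 0.681 CPM in Vehicle, so the groups overlapped.

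Mitotic kinesins fell in ITC capsules, most of them to a small share of their Vehicle level. Of the 13 mitotic genes, 12 had enough counts for a test, and each of these was called lower, against 19.0% of all genes tested. Their log2 changes ran from -5.58 to -1.47 with a median of -3.96, against the median of -0.01 over all genes. In 11 of the 12 the decrease was at least 4-fold, which 4.29% of all genes tested showed, in 10 it exceeded 8-fold, and in 6 it exceeded 16-fold. In 12 of 12 the groups did not overlap, with each ITC library under each Vehicle library, as in 24.0% of all genes tested. A gene passes the count filter through either group, so a motor at the edge of detection in ITC was tested because of its Vehicle counts. The largest adjusted p of the 12 was 2.08e-05 in edgeR's test. The split into roles was made with earlier results of these data known. KIF2A, which also acts at spindle poles, was placed with the other kinesins and was not called.

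**Figure D1:**
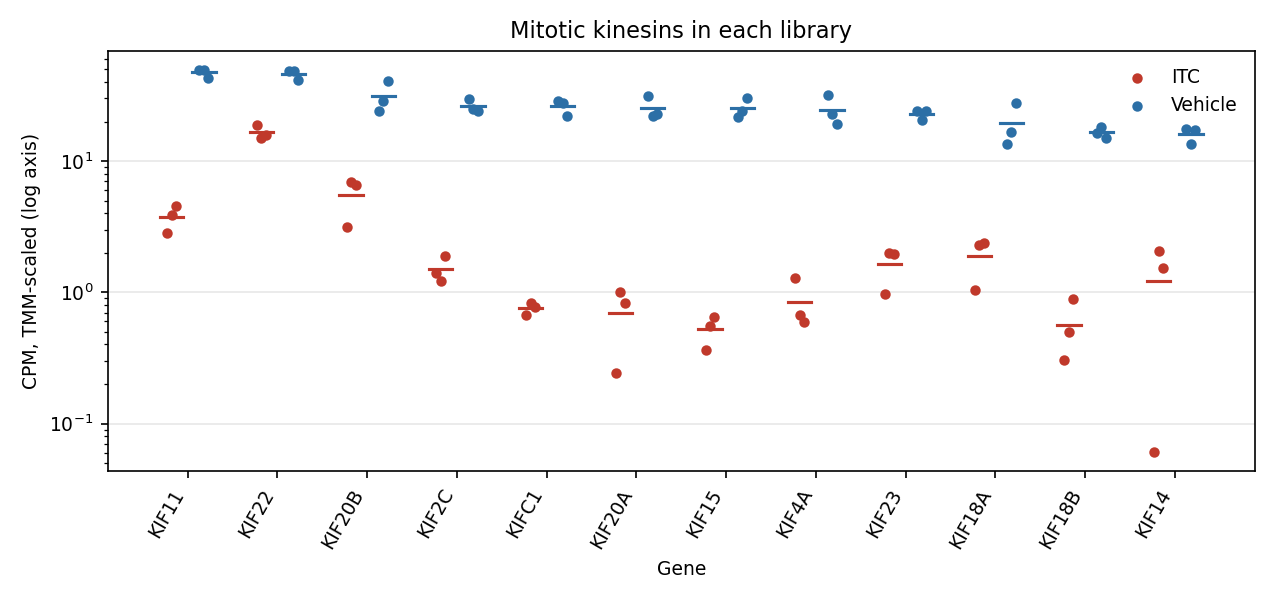
Level of each mitotic kinesin in each library, in CPM on a log axis, with ITC libraries left of Vehicle libraries and a bar at each group mean. The Vehicle means lie between 16.1 and 47.3 CPM and the ITC means between 0.523 and 16.6 CPM, and the groups of each of the 12 tested genes are separate.

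The first of these motors separate the spindle poles and hold them apart. KIF11 (chr10:92593286-92655395) slides antiparallel microtubules past each other to push the poles apart. It had 2.85, 3.89 and 4.54 CPM in ITC libraries and 49.2, 49.5 and 43.3 CPM in Vehicle libraries. All 3 ITC libraries were low and close together, and KIF11 was 12.5-fold lower in ITC (log2 change -3.65 ± 0.20, edgeR adjusted p = 3.06e-09). KIF15 (chr3:44761717-44873376), which helps KIF11 to keep the poles apart, had 0.364, 0.555 and 0.649 CPM in ITC libraries and 21.7, 24.003 and 30.2 CPM in Vehicle libraries. This was the largest decrease among the 37 kinesin-named genes tested, at 47.8-fold (log2 change -5.58 ± 0.27, edgeR adjusted p = 1.01e-09), and it rested on 6, 10 and 11 counts in ITC libraries against 468, 458 and 975 in Vehicle libraries. KIFC1 (chr6:33391536-33409924) moves towards microtubule minus ends and gathers them at the poles. It had 0.668, 0.833 and 0.767 CPM in ITC libraries and 28.8, 27.6 and 21.9 CPM in Vehicle libraries. It was 34.1-fold lower in ITC (log2 change -5.09 ± 0.24, edgeR adjusted p = 8.31e-10). A ribosomal protein pseudogene, RPL12P1, covers 12.7% of its exon bases.

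The next motors act on chromosomes and on the microtubule ends that hold them. KIF22 (chr16:29790719-29805385) and KIF4A (chrX:70290090-70420832) bind chromosome arms and are called chromokinesins. KIF22 had 18.9, 15.0 and 15.8 CPM in ITC libraries and 48.2, 48.5 and 41.2 CPM in Vehicle libraries. Its decrease was the smallest of the 12, at 2.77-fold (log2 change -1.47 ± 0.16, edgeR adjusted p = 4.67e-06), so ITC libraries held 36.1% of the Vehicle level. An antisense gene, AC009133.4, shares 13% of the exon bases of KIF22. KIF4A had 1.27, 0.666 and 0.590 CPM in ITC libraries and 31.8, 23.0 and 19.2 CPM in Vehicle libraries. It was 29.2-fold lower (log2 change -4.87 ± 0.31, edgeR adjusted p = 1.27e-08), so the 2 chromokinesins differed widely in how much was left. KIF4B, a near copy of KIF4A whose longest transcript matched at 95.274% of 4359 aligned bases, was not tested: it had no count in ITC libraries and 2, 2 and 0 counts in Vehicle libraries. How reads were divided between the copies is not given in the sources used here.

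KIF2C (chr1:44739818-44767767) removes tubulin from microtubule ends at the kinetochore, where it helps to correct wrong attachments. It had 1.40, 1.22 and 1.89 CPM in ITC libraries and 29.8, 25.1 and 23.9 CPM in Vehicle libraries, and was 17.4-fold lower in ITC (log2 change -4.12 ± 0.23, edgeR adjusted p = 3.37e-09). KIF18A (chr11:28020620-28108308), which dampens chromosome movement so that chromosomes align, had 1.03, 2.28 and 2.36 CPM in ITC libraries and 13.6, 16.8 and 27.6 CPM in Vehicle libraries. KIF18A varied more among Vehicle libraries than KIF2C did, and its decrease of 10.2-fold still exceeded that spread (log2 change -3.35 ± 0.33, edgeR adjusted p = 1.27e-06). KIF18B (chr17:44924709-44947711), which acts on the astral microtubules, had 0.303, 0.500 and 0.885 CPM in ITC libraries and 16.4, 18.1 and 15.1 CPM in Vehicle libraries. It was 29.02-fold lower (log2 change -4.86 ± 0.31, edgeR adjusted p = 1.28e-08).

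The last mitotic motors work at the central spindle and during cytokinesis. KIF23 (chr15:69414246-69448427) is the motor of the centralspindlin complex. It had 0.971, 1.999 and 1.95 CPM in ITC libraries and 23.98, 20.6 and 24.1 CPM in Vehicle libraries. It was 13.9-fold lower in ITC (log2 change -3.80 ± 0.25, edgeR adjusted p = 2.25e-08). KIF20A (chr5:138178719-138187715), which brings the chromosomal passenger complex to the central spindle, had 0.243, 1.00 and 0.826 CPM in ITC libraries and 31.0, 22.1 and 22.9 CPM in Vehicle libraries. It was 36.1-fold lower (log2 change -5.17 ± 0.33, edgeR adjusted p = 1.32e-08), from 4, 18 and 14 counts in ITC libraries against 669, 422 and 741 in Vehicle libraries. The decrease of KIF20B (chr10:89701610-89774939), a related motor of late cytokinesis, was smaller. It had 3.16, 6.89 and 6.61 CPM in ITC libraries and 24.03, 28.8 and 40.4 CPM in Vehicle libraries, a 5.59-fold decrease (log2 change -2.48 ± 0.27, edgeR adjusted p = 4.5e-06). KIF14 (chr1:200551497-200620734), which recruits citron kinase to the midbody, had 0.0607, 2.05 and 1.53 CPM in ITC libraries and 17.5, 13.5 and 17.2 CPM in Vehicle libraries. ITC replicate 1 held 1 count of KIF14, against 37 and 26 in the other ITC libraries, so its SE is the widest of the group (13.0-fold lower, log2 change -3.70 ± 0.48, edgeR adjusted p = 2.08e-05). Without ITC replicate 2 the log2 change of KIF14 was -4.30.

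ITC replicate 1 was the lowest of the ITC libraries for 9 of the 12 tested mitotic motors, replicate 2 for 2 and replicate 3 for 1. Among Vehicle libraries the lowest was replicate 3 for 6, and replicates 1 and 2 for 3 each. Under 16 other settings, which included leaving out each library in turn, the 12 motors were called lower in each fit, 204 of 204 with the main one, with log2 changes from -5.80 to -1.26. The smallest sizes came from the log2(FPKM + 1) scale, which understates changes of low genes.

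Transcripts of proteins that work with these motors were lower as well. The list of 22 mitotic partner genes was chosen with earlier results of these data known. Of these, 21 were tested and 21 were called lower, against 19.0% of all genes tested, with a median log2 change of -3.65. DLGAP5, a spindle assembly factor, had 0.973 ± 0.494 CPM in ITC and 48.2 ± 11.8 CPM in Vehicle (log2 change -5.62 ± 0.30, edgeR adjusted p = 2.44e-09). CDK1, the kinase that drives entry into mitosis, had 3.48 ± 1.49 CPM in ITC and 90.6 ± 13.8 CPM in Vehicle (log2 change -4.70 ± 0.26, edgeR adjusted p = 3.06e-09). AURKB, the kinase of the passenger complex that KIF20A carries, had 0.214 ± 0.0336 CPM in ITC and 11.6 ± 0.714 CPM in Vehicle (log2 change -5.72 ± 0.31, edgeR adjusted p = 3.11e-09). All 3 had separate groups with ITC lower, as in 24.0% of all genes tested, and little was left in ITC. BUB1, a spindle checkpoint kinase, had 1.00 ± 0.397 CPM in ITC and 26.1 ± 4.14 CPM in Vehicle (log2 change -4.69 ± 0.27, edgeR adjusted p = 5.98e-09). CENPE, a kinesin of the kinetochore whose symbol lies outside the naming rule, had 2.43 ± 1.23 CPM in ITC and 53.8 ± 16.9 CPM in Vehicle (log2 change -4.45 ± 0.32, edgeR adjusted p = 4.84e-08). RACGAP1, which joins KIF23 in centralspindlin, had a log2 change of -2.66 ± 0.18. INCENP, the scaffold of the passenger complex, had the smallest change of the list at -0.86. PRC1, the microtubule crosslinker that binds KIF4A, was not tested, and 58.4% of its exon bases are shared with other genes, mostly AC068831.7.

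General markers of cycling cells moved the same way. MKI67, the gene of the Ki-67 antigen, had 1.06 ± 0.433 CPM in ITC and 88.6 ± 27.7 CPM in Vehicle (log2 change -6.37 ± 0.31). TOP2A, a topoisomerase of dividing cells, had 3.62 ± 1.28 CPM in ITC and 201 ± 17.5 CPM in Vehicle (log2 change -5.79 ± 0.24). All 6 cycling markers checked were called lower, against 19.0% of all genes tested. Their log2 changes differed widely in size, from -6.37 to -0.79. Their summed level was 86.5 to 93.2 CPM in ITC libraries and 548 to 641 CPM in Vehicle libraries. Without TOP2A, the most abundant, it was 83.4 to 90.5 CPM in ITC libraries and 328 to 445 CPM in Vehicle libraries. In RNA from whole capsules, fewer dividing cells and less mitotic RNA per cell cannot be told apart. Progenitor markers also differed, with 6 of 7 tested called lower, against 19.0% of all genes tested, and 1 higher. Their summed level was 3126 to 3812 CPM in ITC and 3096 to 3819 CPM in Vehicle. Without VIM, the most abundant, it was 992 to 1193 CPM in ITC and 1646 to 1980 CPM in Vehicle. The part of either marker list in the kinesin changes was not tested.

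The start regions of the mitotic motors were read for short motifs known from mitotic genes. The cell cycle genes homology region, CHR, is bound by the DREAM and MuvB complexes, and the CCAAT box is bound by the factor NF-Y. CHR was searched for here only as the letters TTTGAA, without variant spellings. Pieces of 9 promoters from RefSeq (GRCh38.p14) are given here, from 100 bases before the annotated start to the first 20 bases after it, written 5′ to 3′ along the gene's own strand, with capitals marking CHR and CCAAT matches on either strand (TTCAAA and ATTGG are the reverse complements). The first 7 are mitotic motors with a CHR match, shown because they share these letters near the start. The last 2 are KIF2C, a mitotic motor with no match of either motif, and KIF1C, the transport motor with the largest rise.
KIF11 (chr10:92593030-92593149, plus strand): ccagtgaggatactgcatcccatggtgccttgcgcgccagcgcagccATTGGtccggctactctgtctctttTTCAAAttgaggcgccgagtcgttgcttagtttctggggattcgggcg
KIF15 (chr3:44761694-44761813, plus strand): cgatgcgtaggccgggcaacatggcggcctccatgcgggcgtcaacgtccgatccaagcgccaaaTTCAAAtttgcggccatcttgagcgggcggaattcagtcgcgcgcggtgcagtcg
KIFC1 (chr6:33391723-33391842, plus strand): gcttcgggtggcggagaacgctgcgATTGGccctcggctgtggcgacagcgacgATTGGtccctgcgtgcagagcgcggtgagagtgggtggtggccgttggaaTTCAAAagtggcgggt
KIF4A (chrX:70290004-70290123, plus strand): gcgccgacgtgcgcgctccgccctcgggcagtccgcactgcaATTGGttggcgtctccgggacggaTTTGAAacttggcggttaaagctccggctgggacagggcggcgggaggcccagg
KIF18A (chr11:28108137-28108256, minus strand): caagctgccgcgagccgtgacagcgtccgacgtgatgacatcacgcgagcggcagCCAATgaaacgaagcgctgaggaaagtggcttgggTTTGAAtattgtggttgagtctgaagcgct
KIF18B (chr17:44947754-44947873, minus strand): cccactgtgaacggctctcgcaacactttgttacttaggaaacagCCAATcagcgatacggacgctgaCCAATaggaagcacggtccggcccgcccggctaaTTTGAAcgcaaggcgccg
KIF23 (chr15:69414249-69414368, plus strand): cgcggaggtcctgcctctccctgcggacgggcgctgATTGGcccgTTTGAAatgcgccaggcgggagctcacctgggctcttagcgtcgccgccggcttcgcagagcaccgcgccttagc
KIF2C (chr1:44739737-44739856, plus strand): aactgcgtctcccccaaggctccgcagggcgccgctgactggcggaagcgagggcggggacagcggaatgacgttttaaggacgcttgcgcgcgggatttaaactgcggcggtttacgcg
KIF1C (chr17:4997850-4997969, plus strand): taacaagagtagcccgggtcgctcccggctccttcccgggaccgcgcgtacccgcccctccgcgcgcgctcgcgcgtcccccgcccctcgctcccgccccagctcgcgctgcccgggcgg

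RefSeq windows of 300 bases, 250 before the start and 50 from it on, were found for 33 of the 41 motors. A CHR match on either strand was present for 10 of 13 mitotic motors, KIF4B included, and for 1 of 20 other motors, KIF5B. Counted by window, since some genes have several starts, these were 71.4% of 14 mitotic windows and 3.57% of 28 other motor windows, against 15.2% of the 35116 windows in the table. A CCAAT match was present for 11 of 13 mitotic motors and 7 of 20 others, or 78.6% of mitotic windows and 32.1% of other motor windows, against 34.6% of all windows. Both motifs stood in 64.3% of mitotic windows, 3.57% of other motor windows and 5.9% of all windows. No CHR match overlapped a CCAAT match. An E2F-like sequence, TTCCCGC on either strand, was found in 0 of 14 mitotic windows, 10.7% of other motor windows and 6.55% of all windows.

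**Figure D2:**
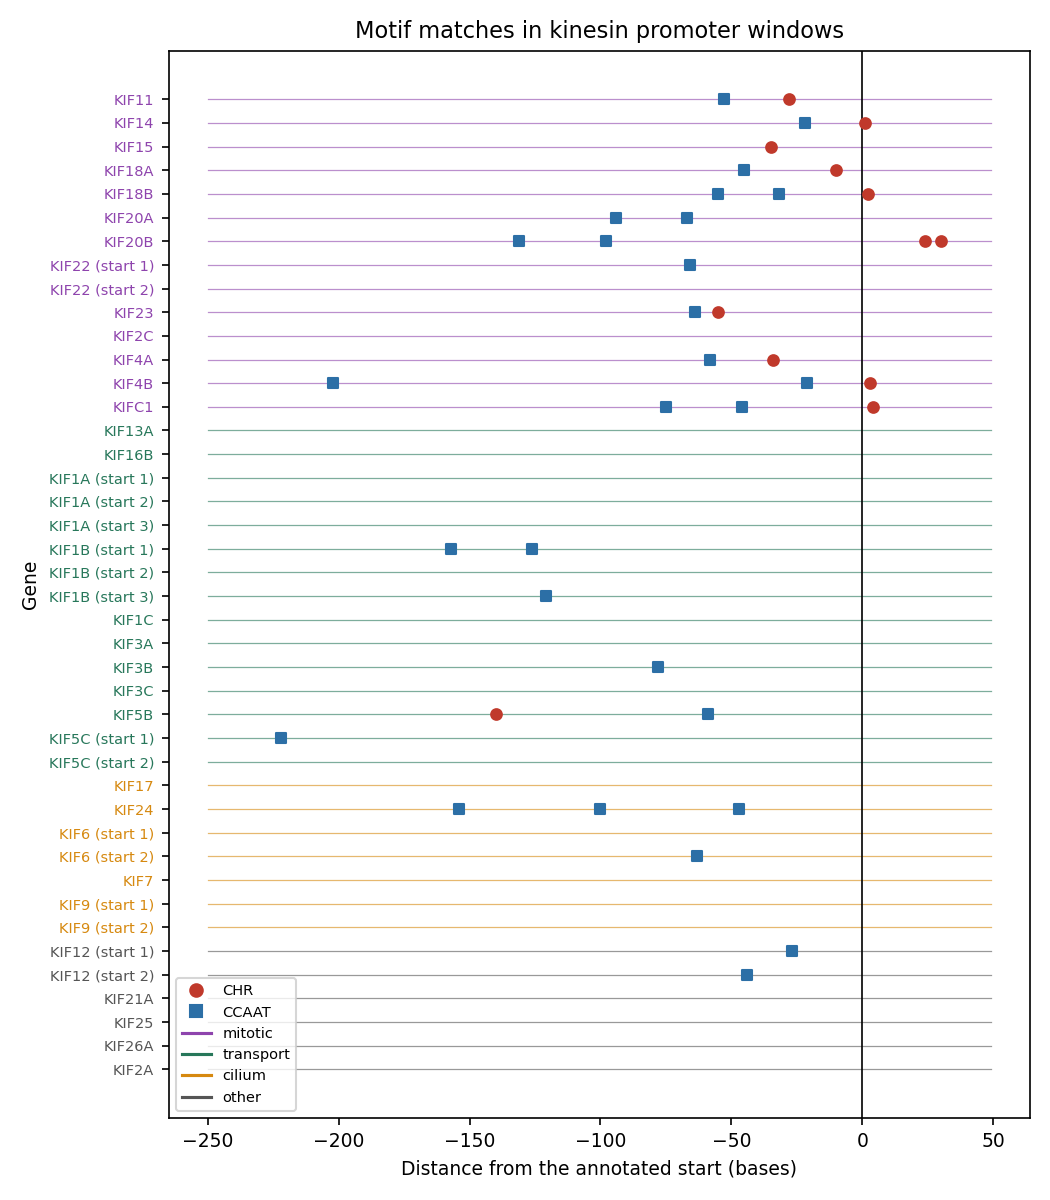
Positions of CHR and CCAAT matches in the RefSeq windows of kinesin genes, as distance in bases from the annotated start. The 11 CHR matches of mitotic motors lie between -55 and 30 bases, and 14 of their 16 CCAAT matches lie within 100 bases upstream of the start.

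In the mitotic windows the 11 CHR matches lay between 55 bases before and 30 bases after the start, and the 16 CCAAT matches lay between 202 and 21 bases before it. No TTTGAA was found on either strand for KIF20A, KIF22 and KIF2C, which were 36.1-fold, 2.77-fold and 17.4-fold lower in ITC. Motors with and without this exact match thus both had large decreases. Variant spellings of CHR were not searched for, so these motors may still hold one. A match is a description of the letters in these windows and does not show binding.

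Transport kinesins did not move as a group. All 14 were tested, 4 were called higher in ITC, against 20.4% of all genes tested, 1 was called lower and 9 were not called. Their median log2 change was 0.19, with a range from -0.63 to 1.08. Called genes made up 35.7% of the transport motors, near the 39.4% of all genes, and groups did not overlap in 6 of 14, or 42.9%, against 50.1% of all genes tested.

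**Figure D3:**
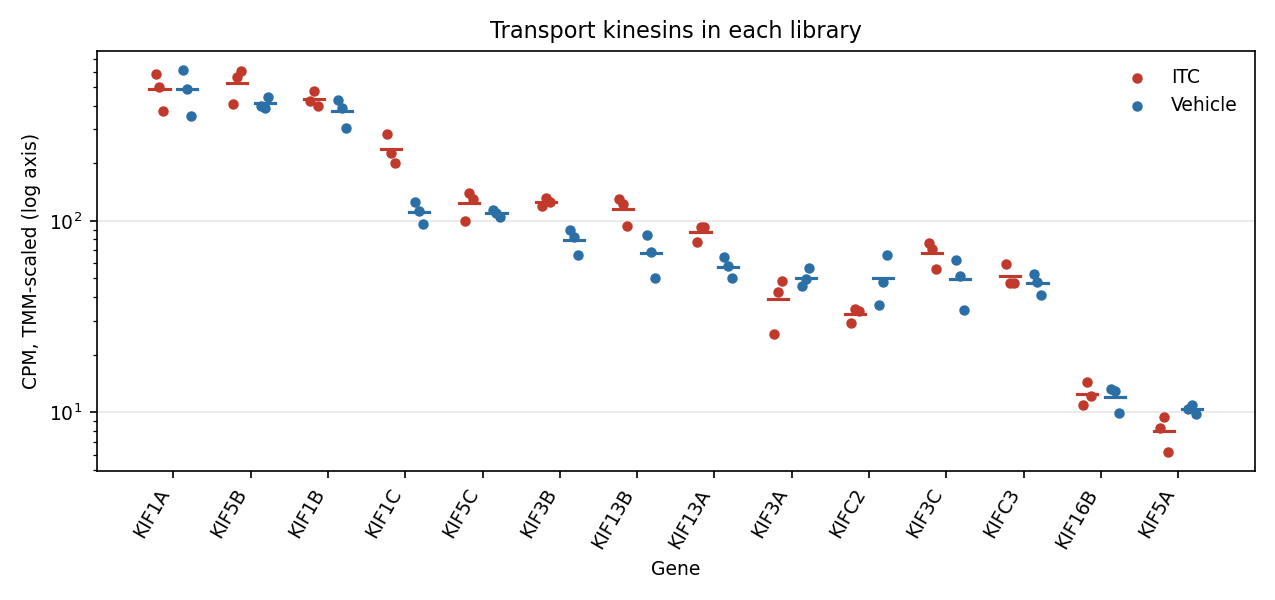
Level of each transport kinesin in each library, in CPM on a log axis, with ITC libraries left of Vehicle libraries and a bar at each group mean. KIF1C shows separate groups with ITC higher, at 236 against 112 CPM on average, while the groups of KIF1A lie on top of each other at 487 and 486 CPM.

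KIF1C had the largest rise of the kinesin-named genes. It carries vesicles, including those with integrins, and in some cells RNA. KIF1C (chr17:4997948-5028401) had 284, 226 and 199.6 CPM in ITC libraries and 125, 113 and 96.7 CPM in Vehicle libraries. It was 2.12-fold higher in ITC (log2 change 1.08 ± 0.18, edgeR adjusted p = 0.000183), and it was called higher in 16 of 16 other settings with log2 changes of 0.85 to 1.21. Its relatives KIF1A and KIF1B, which carry synaptic vesicle precursors and, for KIF1B, mitochondria in neurons, were not called. KIF1A (chr2:240713761-240821036) had 586, 502 and 374 CPM in ITC libraries and 615, 490.5 and 352 CPM in Vehicle libraries. The 2 groups spanned almost the same range, and the log2 change was 0.00 ± 0.21 (edgeR adjusted p = 0.99). KIF1B (chr1:10210805-10381603) had 422, 476 and 399 CPM in ITC libraries and 429, 388 and 305 CPM in Vehicle libraries (log2 change 0.21 ± 0.17, edgeR adjusted p = 0.353).

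The related vesicle motors KIF13A and KIF13B were both called higher. KIF13B (chr8:29067279-29263124), which carries vesicles marked by phosphoinositides, had 129.5, 122 and 94.3 CPM in ITC libraries and 84.2, 68.4 and 50.2 CPM in Vehicle libraries. It was 1.71-fold higher in ITC (log2 change 0.77 ± 0.20, edgeR adjusted p = 0.00601). KIF13A (chr6:17759183-17987623), which carries mannose 6-phosphate receptor vesicles, had 77.4, 92.6 and 92.8 CPM in ITC libraries and 64.5, 58.1 and 50.3 CPM in Vehicle libraries. It was 1.52-fold higher (log2 change 0.60 ± 0.16, edgeR adjusted p = 0.00688). For both, the lowest ITC library lay above the highest Vehicle library, as in 26.1% of all genes tested. The call of KIF13A was lost with library size as the only scaling (log2 change 0.38, adjusted p = 0.0697) and without Vehicle replicate 2 (0.57, adjusted p = 0.0554).

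KIF3A, KIF3B and KIF3C are the motor subunits of a heterotrimeric kinesin that carries vesicles and, as the KIF3A and KIF3B pair, also builds cilia. KIF3B (chr20:32277664-32335011) had 120.2, 132 and 126 CPM in ITC libraries and 90.0, 82.5 and 66.6 CPM in Vehicle libraries. It was 1.58-fold higher in ITC (log2 change 0.66 ± 0.16, edgeR adjusted p = 0.00402), and KIFAP3, the third subunit of the complex, was higher too at 90.4 ± 7.998 CPM in ITC and 61.7 ± 6.50 CPM in Vehicle (log2 change 0.55 ± 0.15, edgeR adjusted p = 0.00998). KIF3A (chr5:132692628-132737638), the partner of KIF3B, had 25.7, 42.6 and 48.2 CPM in ITC libraries and 45.4, 49.6 and 56.6 CPM in Vehicle libraries. Its groups overlapped, and the log2 change was -0.38 ± 0.20 (edgeR adjusted p = 0.158). KIF3C (chr2:25926596-25982749) had 76.3, 71.0 and 56.1 CPM in ITC libraries and 62.7, 51.4 and 34.4 CPM in Vehicle libraries (log2 change 0.46 ± 0.20, edgeR adjusted p = 0.0924). Single libraries decided these last calls: without ITC replicate 3, KIF3A was called lower (-0.55, adjusted p = 0.0482) and KIF3C higher (0.59, adjusted p = 0.0345), and without Vehicle replicate 1 KIF3C was called higher (0.65, adjusted p = 0.0199).

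KIF5A, KIF5B and KIF5C are the heavy chains of conventional kinesin, the general long-range carrier. KIF5B (chr10:32009010-32056431), made in most cell types, had 409, 567 and 608 CPM in ITC libraries and 400.2, 388 and 446 CPM in Vehicle libraries. ITC replicate 1 lay within the Vehicle range and the other ITC libraries above it, and the change was not called (log2 change 0.36 ± 0.18, edgeR adjusted p = 0.119). Without that library KIF5B was called higher (0.53, adjusted p = 0.0193). KIF5C (chr2:148875250-149026759), known mainly from neurons, had 99.8, 139.9 and 131 CPM in ITC libraries and 114, 109 and 105 CPM in Vehicle libraries (log2 change 0.17 ± 0.16, edgeR adjusted p = 0.423). KIF5A (chr12:57549998-57586632), also a neuronal heavy chain, had 8.25, 9.38 and 6.20 CPM in ITC libraries and 10.4, 10.9 and 9.78 CPM in Vehicle libraries. Its groups did not overlap, with ITC lower, yet the change missed the threshold (log2 change -0.38 ± 0.21, edgeR adjusted p = 0.16).

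KIFC2 was the transport kinesin called lower. It is a motor that moves towards microtubule minus ends and is known mainly from neurons. KIFC2 (chr8:144466043-144474202) had 29.1, 34.7 and 33.7 CPM in ITC libraries and 36.5, 47.7 and 66.6 CPM in Vehicle libraries. It was 1.55-fold lower in ITC (log2 change -0.63 ± 0.20, edgeR adjusted p = 0.0212). The call was lost without ITC replicate 1 (-0.54, adjusted p = 0.0978) and without Vehicle replicate 3 (-0.42, adjusted p = 0.0624), and FOXH1 on the other strand shares 17.8% of its exon bases. KIFC3, a minus-end motor of epithelial cell junctions, had 59.3, 47.6 and 47.4 CPM in ITC libraries and 52.8, 47.9 and 40.7 CPM in Vehicle libraries (log2 change 0.13 ± 0.16, edgeR adjusted p = 0.568). KIF16B, a motor of early endosomes, had 12.5 ± 1.75 CPM in ITC and 11.98 ± 1.83 CPM in Vehicle (log2 change 0.06 ± 0.19, edgeR adjusted p = 0.826).

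Neuron markers are given beside KIF1A, KIF5A, KIF5C and KIFC2, since neurons also make these motors. Of 12 such markers, 11 were tested, and 7 were called lower, or 63.6% against 19.0% of all genes tested. GAP43 alone was called higher. Their summed level was 1416 to 1641 CPM in ITC libraries and 1420 to 1716 CPM in Vehicle libraries, and without GAP43 it was 349 to 465 CPM in ITC libraries and 1053 to 1397 CPM in Vehicle libraries. MAP2, NEFL and DCX were lower, with log2 changes of -1.56 ± 0.17, -2.04 ± 0.19 and -2.21 ± 0.26, and GAP43 was higher at 1.79 ± 0.16. RBFOX3, which marks mature neurons, was at 0.341 CPM in ITC and 0.332 CPM in Vehicle, and TUBB3 was at 3.14 CPM in ITC and 4.09 CPM in Vehicle. The part of neuron-like cells in these motor levels was not tested.

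Adaptors and light chains of the transport kinesins were mixed. Of 21 tested genes on that list, 5 were called higher, 2 lower and 14 not, with a median log2 change of 0.15. The 33.3% called in either direction is near the 39.4% of all genes tested. PLEKHM2, which links conventional kinesin to lysosomes, had 225 ± 49.2 CPM in ITC and 92.2 ± 10.9 CPM in Vehicle (log2 change 1.29 ± 0.18, edgeR adjusted p = 5.36e-05). KLC1, a light chain of conventional kinesin, had 101 ± 5.36 CPM in ITC and 71.6 ± 5.70 CPM in Vehicle (log2 change 0.50 ± 0.15, edgeR adjusted p = 0.0138), and 40.6% of its exon bases are shared with other genes. MAPK8IP1, a scaffold that ties cargo to KIF5 motors, was lower at 242 ± 54.3 CPM in ITC and 415 ± 106 CPM in Vehicle (log2 change -0.78 ± 0.21, edgeR adjusted p = 0.00916). Light chain and scaffold thus lay on opposite sides. Of the genes not called, KTN1, a kinesin receptor of the endoplasmic reticulum, had 268 ± 75.4 CPM in ITC and 347 ± 59.7 CPM in Vehicle. SPAG9, another scaffold, had 225 ± 39.7 CPM in ITC and 280.4 ± 4.60 CPM in Vehicle. KIF1BP, which binds kinesins and blocks their grip on microtubules, had 66.0, 67.3 and 62.3 CPM in ITC libraries and 76.5, 70.9 and 60.3 CPM in Vehicle libraries (log2 change -0.09 ± 0.15, edgeR adjusted p = 0.68).

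Dynein and dynactin, which carry cargo in the opposite direction, had 5 of 28 genes called higher, none lower and 23 not called, with a median log2 change of 0.16. The 17.9% called higher is near the 20.4% of all genes tested. HOOK2, an adaptor of dynein, had 43.9 ± 2.24 CPM in ITC and 19.2 ± 4.12 CPM in Vehicle (log2 change 1.19 ± 0.17, edgeR adjusted p = 7.63e-05). NDEL1, a dynein regulator, had 48.3 ± 1.503 CPM in ITC and 27.3 ± 0.359 CPM in Vehicle (log2 change 0.83 ± 0.14, edgeR adjusted p = 0.000327). DCTN1, the largest dynactin subunit, had 311 ± 61.7 CPM in ITC and 176 ± 36.8 CPM in Vehicle (log2 change 0.82 ± 0.20, edgeR adjusted p = 0.00398). In these 3 genes each ITC library lay above each Vehicle library, as in 26.1% of all genes tested. ACTR1A, the actin-like filament protein of dynactin, had 303 ± 61.0 CPM in ITC and 187 ± 36.3 CPM in Vehicle (log2 change 0.69 ± 0.19, edgeR adjusted p = 0.00968). Its groups were separate as well. DYNC1H1, the most abundant gene of the list, was also called higher, but its groups overlapped. It had 800 ± 189 CPM in ITC and 522 ± 144 CPM in Vehicle (log2 change 0.62 ± 0.22, edgeR adjusted p = 0.0403). Of those not called, DYNLL1 had 265 ± 19.5 CPM in ITC and 269.9 ± 44.3 CPM in Vehicle, and PAFAH1B1 had 229 ± 16.5 CPM in ITC and 198 ± 16.9 CPM in Vehicle.

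**Figure D4:**
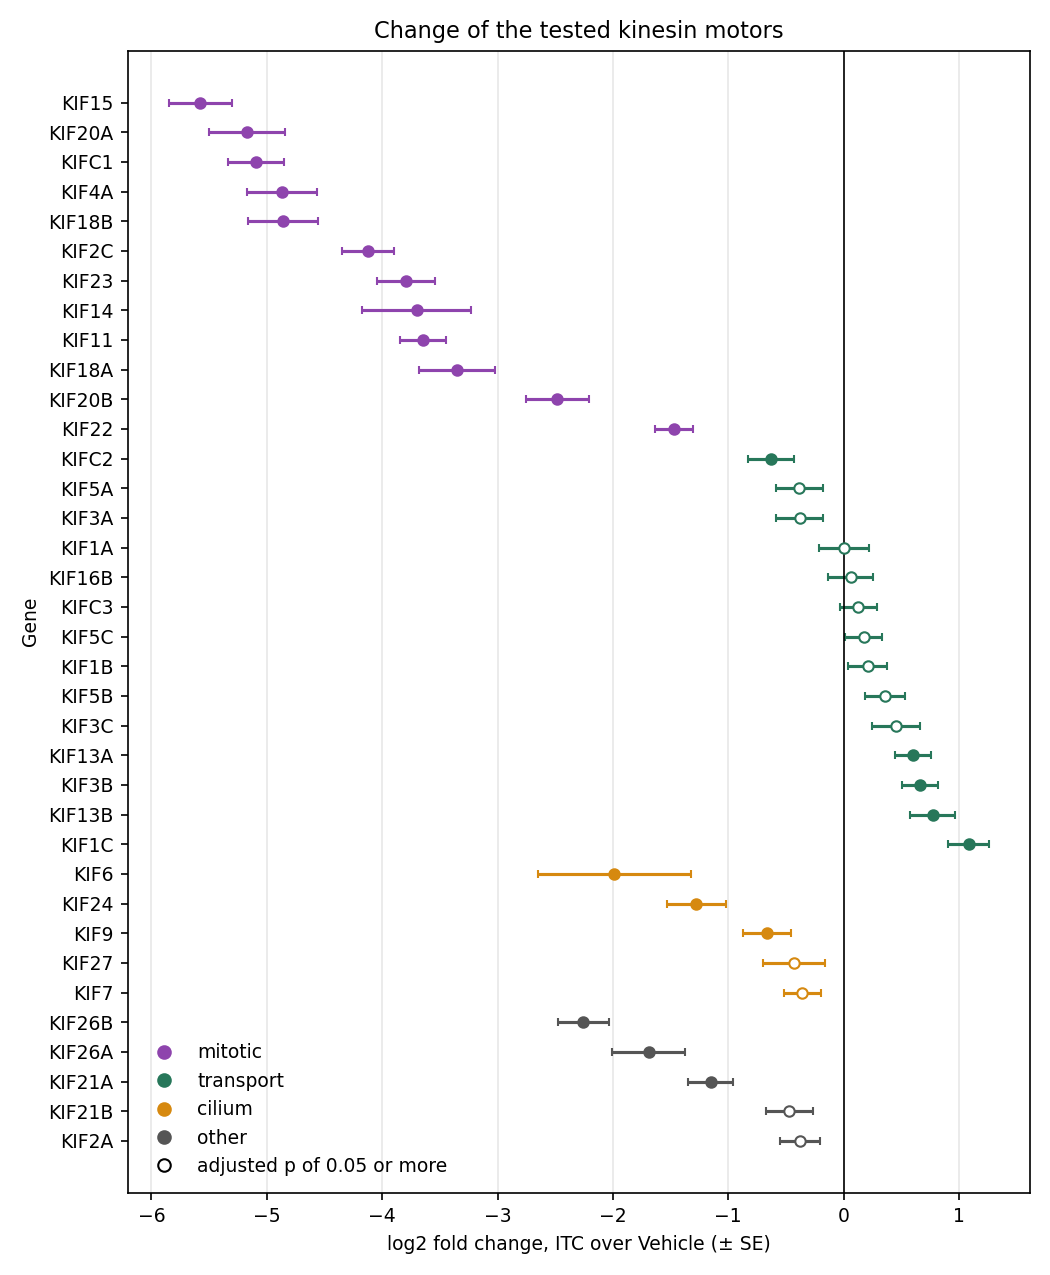
Log2 change of each of the 36 tested kinesin motors, ITC over Vehicle, with its SE as bars, ordered within mitotic, transport, cilium and other kinesins, with open circles for genes not called. The mitotic motors lie between -5.58 and -1.47, and the transport motors lie between -0.63 and 1.08.

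Cilium kinesins were called lower in 3 of the 5 that could be tested, against 19.0% of all genes tested, and the other 2 were not called, with a median log2 change of -0.66. KIF24, which holds back the growth of cilia from centrioles, had 5.83, 7.39 and 3.95 CPM in ITC libraries and 17.1, 14.3 and 10.4 CPM in Vehicle libraries. It was 2.42-fold lower in ITC (log2 change -1.28 ± 0.25, edgeR adjusted p = 0.00106), and this call held in 16 of 16 other settings. KIF9, a motor of beating cilia and flagella, had 7.16, 4.998 and 6.73 CPM in ITC libraries and 9.37, 10.1 and 10.4 CPM in Vehicle libraries. Its groups were separate (log2 change -0.66 ± 0.21, edgeR adjusted p = 0.0216), but the call was lost without ITC replicate 2 (-0.51, adjusted p = 0.131) and without Vehicle replicate 2 (-0.68, adjusted p = 0.0577), and 17.9% of its exon bases are shared with KIF9-AS1 and KLHL18 on the other strand. KIF6 lay near the limit of detection, with 1, 8 and 2 counts in ITC libraries and 22, 17 and 22 in Vehicle libraries (log2 change -1.99 ± 0.66, edgeR adjusted p = 0.028). Its call was kept in 8 of 15 other settings. It was lost with DESeq2 (-2.04, adjusted p = 0.066) and with limma on log2(FPKM + 1) (-0.08, adjusted p = 0.314) and log2(FPKM + 0.1) (-0.57, adjusted p = 0.123). Without ITC replicate 2 the log2 change was -3.17, and the call was lost without ITC replicate 1 (-1.56, adjusted p = 0.114), ITC replicate 3 (-1.70, adjusted p = 0.0964), Vehicle replicate 1 (-1.87, adjusted p = 0.066) or Vehicle replicate 2 (-2.01, adjusted p = 0.0681).

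KIF7, the kinesin of the Hedgehog pathway at the tip of the primary cilium, had 17.7, 17.3 and 15.3 CPM in ITC libraries and 22.5, 20.5 and 21.2 CPM in Vehicle libraries. The groups did not overlap, yet the change was not called (log2 change -0.36 ± 0.16, edgeR adjusted p = 0.0913). TICRR on the other strand shares 11.8% of the exon bases of KIF7. KIF27, a relative of KIF7 tied to motile cilia in mice, had 3.03, 5.61 and 6.43 CPM in ITC libraries and 6.26, 6.97 and 7.06 CPM in Vehicle libraries (log2 change -0.43 ± 0.27, edgeR adjusted p = 0.228). Antisense genes share 13.1% of the exon bases of KIF27. KIF17 and KIF19 were too low for a test, with 9, 2 and 4 counts of KIF17 in ITC libraries against 7, 11 and 20 in Vehicle libraries, and 0, 3 and 0 counts of KIF19 in ITC libraries against 22, 8 and 1 in Vehicle libraries. With no filter on low counts KIF19 was called lower (log2 change -2.98, edgeR adjusted p = 0.0415), while 2 of its Vehicle libraries held most of its counts, and KIF17 was not called (-0.78, adjusted p = 0.518). Genes of intraflagellar transport, the traffic that kinesins drive inside cilia, were called lower in 7 of 20, or 35.0% against 19.0% of all genes tested, and higher in none, with a median log2 change of -0.25. CLUAP1, a subunit of the transport particle, had 14.0 ± 1.65 CPM in ITC and 22.0 ± 1.56 CPM in Vehicle (log2 change -0.65 ± 0.17, edgeR adjusted p = 0.00662). TTC21B, IFT27 and IFT22 were also called lower, at log2 changes of -0.68 ± 0.20, -0.57 ± 0.18 and -0.53 ± 0.17. IFT57 (log2 change -0.02 ± 0.14) and the ciliary dynein DYNC2H1 (-0.04 ± 0.19) were not called. Markers of cells with motile cilia were called lower in 8 of 10, with a summed level of 52.3 to 58.4 CPM in ITC libraries and 162 to 202 CPM in Vehicle libraries, and FOXJ1, the master factor of motile cilia, had 12.2 ± 1.78 CPM in ITC and 92.4 ± 21.2 CPM in Vehicle. Their part in the cilium kinesin changes was not tested.

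The other kinesins regulate microtubule growth or have unusual motor domains. Of 7 genes, 5 were tested, 3 were called lower, against 19.0% of all genes tested, and 2 were not called, with a median log2 change of -1.15. KIF26B (chr1:245154985-245709431), whose motor domain lacks ATPase activity, had 5.22, 6.55 and 6.02 CPM in ITC libraries and 31.5, 34.0 and 19.9 CPM in Vehicle libraries. At 4.78-fold lower, it had the largest decrease among the motors outside the mitotic group that passed the count filter (log2 change -2.26 ± 0.22, edgeR adjusted p = 1.3e-06). Its relative KIF26A (chr14:104138723-104180894) had 1.27, 1.94 and 2.77 CPM in ITC libraries and 5.66, 8.49 and 5.32 CPM in Vehicle libraries, a 3.23-fold decrease (log2 change -1.69 ± 0.32, edgeR adjusted p = 0.000675). KIF21A (chr12:39293228-39443390), which slows microtubule growth at the cell edge, had 26.8, 42.4 and 47.8 CPM in ITC libraries and 81.5, 91.8 and 86.8 CPM in Vehicle libraries. It was 2.22-fold lower in ITC (log2 change -1.15 ± 0.19, edgeR adjusted p = 0.000258). All 3 decreases were called in 16 of 16 other settings.

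KIF21B, its relative, had 11.8, 11.6 and 9.33 CPM in ITC libraries and 17.7, 16.2 and 11.5 CPM in Vehicle libraries. It was not called (log2 change -0.47 ± 0.20, edgeR adjusted p = 0.0829), and it was called lower without Vehicle replicate 3 (-0.69, adjusted p = 0.00805). KIF2A, which shortens microtubules in neurites and also at spindle poles, had 57.5, 80.8 and 82.7 CPM in ITC libraries and 88.5, 93.0 and 106 CPM in Vehicle libraries. Its groups did not overlap, with ITC lower, and the change missed the threshold (log2 change -0.38 ± 0.17, edgeR adjusted p = 0.0925). Unlike KIF2C, its close relative in the mitotic group, it kept most of its Vehicle level. KIF12 and KIF25 were too low for a test, with at most 7 counts in any library.

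Leaving out the mitotic group, 24 motors were tested. Of these, 4 were called higher, or 16.7%, and 7 lower, or 29.2%, against 20.4% and 19.0% of all genes, with a median log2 change of -0.37. With the mitotic motors included, 19 of 36 motors were called lower, or 52.8%, and 12 of these 19 were mitotic.

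Levels of different genes were compared per length, with the authors' FPKM. Conventional kinesin KIF5B was the most abundant motor in both groups, at 92.3 ± 16.98 FPKM in ITC and 71.4 ± 4.13 FPKM in Vehicle. KIF1A followed at 30.1 ± 7.08 FPKM in ITC and 29.9 ± 8.69 FPKM in Vehicle, and in ITC KIF1C at 28.4 ± 5.68 FPKM and KIF1B at 25.1 ± 2.40 FPKM lay within 1 SD of KIF1A. KIF1C was at 13.3 ± 1.98 FPKM in Vehicle, level with KIF3B at 13.4 ± 2.28 FPKM. Of the mitotic motors, KIF22 was the most abundant in both groups, at 3.97 ± 0.56 FPKM in ITC and 10.9 ± 1.18 FPKM in Vehicle. KIF11 came next in Vehicle at 9.96 ± 0.928 FPKM, within the SD of KIF22, and was at 0.795 ± 0.168 FPKM in ITC.

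**Figure D5:**
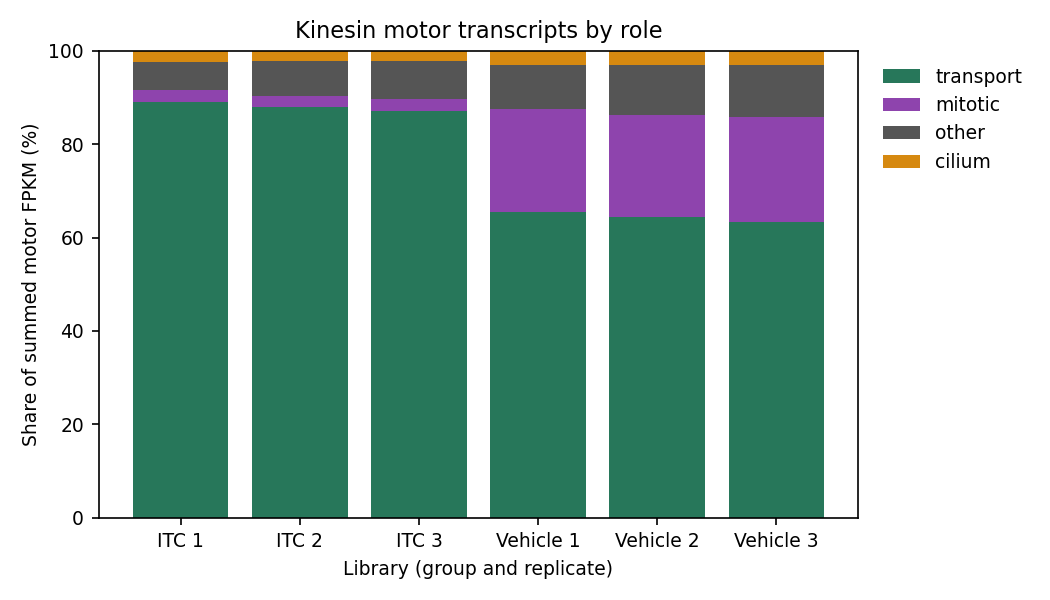
Share of summed motor FPKM held by mitotic, transport, cilium and other kinesins in each library, in percent, with ITC libraries left of Vehicle libraries. Mitotic motors hold 2.46% to 2.73% of the sum in ITC libraries and 21.9% to 22.5% in Vehicle libraries.

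Summed over all motors, FPKM was 285, 315 and 296 in ITC libraries and 347, 321 and 304 in Vehicle libraries, so the total overlapped between the groups. Its makeup did not. Mitotic motors held 2.53%, 2.46% and 2.73% of the sum in ITC libraries and 22.0%, 21.9% and 22.5% in Vehicle libraries. Transport motors held 88.0 ± 1.05% in ITC and 64.4 ± 1.12% in Vehicle. In absolute terms, summed mitotic FPKM was 7.69 ± 0.443 in ITC and 71.6 ± 4.17 in Vehicle, and summed transport FPKM was 263 ± 12.3 in ITC and 209 ± 17.7 in Vehicle. Cilium motors held 2.22 ± 0.132% in ITC and 3.11 ± 0.0457% in Vehicle, and other motors 7.19 ± 1.10% in ITC and 10.4 ± 0.943% in Vehicle. Shares add to a fixed total, so a fall in 1 group raises the shares of the rest.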

How the data were processed

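RNA-seq was done on 3 ITC and 3 Vehicle libraries, grouped and numbered by their sample titles. Per the labels' protocols, RNA was column-purified with a DNase step and poly-A selected. The authors deposited raw whole-number counts per gene, which were used for all tests. Levels of different genes were compared on the authors' FPKM, for which the deposited gene length column was used per the file headers. The deposited normalized signal and its group means were not tested here. The authors' deposited log2 fold changes, of Vehicle over ITC per the file headers, and their p-values were used only to check directions. DESeq2 and GRCh38 (hg38) are named by the submitters' processing notes. Aligner, counter and strandedness were not given in the sources used here, so reads of overlapping genes on opposite strands cannot be told apart. No gene in the table had a summed count under 2. There were 0 sample columns outside the mapped ones and 0 rows without a gene identifier.

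The test was edgeR 4.0.16 under R 4.3.3 on the counts (filterByExpr, TMM scaling, quasi-likelihood test without covariates, Benjamini-Hochberg adjustment over all genes tested, threshold 0.05). TMM factors were 0.886, 0.933 and 0.953 for ITC and 1.07, 1.10 and 1.08 for Vehicle. Each SE was computed from the log2 change and the F statistic of its test. On simulated data of 16756 genes for this comparison the test recovered 70 of 100 genes changed 2-fold and 95 of 100 changed 4-fold, with 7 false calls. The changed genes rose and fell in equal number and excluded the lowest expected counts, and all other genes were left unchanged. In the data 39.4% of genes were called, so the simulation does not describe so wide a change, nor low genes such as KIF6. Depth of 17398921 to 29941685 counts per library limits the lowest genes. No pair of libraries within a group matched within sampling noise (chi-square per degree of freedom 11.3 to 75.9), so none was merged as a repeat deposit; this does not show that they are independent. Alternatives were other scalings, other count filters, DESeq2 1.42.0, limma 3.58.1 (voom, and log2 FPKM with pseudocounts of 1 and 0.1), a replicate block and leaving out each library.

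Role, partner and marker lists were chosen with earlier results of these data known. Values in every library are given for the members with the highest mean CPM, up to 12 mitotic, 12 transport and 8 of the rest, and from each partner list up to 4 called genes with the smallest p and 2 uncalled genes with the highest CPM. Values of CENPE, RACGAP1, INCENP, PRC1, DYNC1H1 and of the members beyond these limits were added after they were seen. Of the partner and marker lists, oligodendrocyte markers had 3 of 6 tested genes called higher and 3 lower (summed level 90.7 to 102 CPM in ITC and 299 to 363 CPM in Vehicle), and mesenchymal markers had 2 of 8 higher and 3 lower (672 to 868 CPM in ITC and 691 to 777 CPM in Vehicle). Exon overlaps came from GENCODE 29 and transcript similarity from BLAST 2.17.0. Promoter windows came from RefSeq and were searched on both strands with Python 3.11.15. Protein sequences were not analysed here.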

Additional observations from a re-analysis of the deposited data

How the results depend on the processing

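Across 16 alternatives, 559 of 591 refits of single kinesin genes kept their direction and their side of the threshold, 13 lost the call, 19 gained one, and none reversed. Kinesin genes called lower numbered 17 to 24 against 19, and those called higher 3 to 6 against 4. The count of 1 transport kinesin called lower became 3 with library size alone, 2 with the replicate block, and 0 to 2 on leaving out a library (0 without ITC replicate 1 or Vehicle replicate 3, 2 without ITC replicate 3). Cilium kinesins called numbered 1 to 3 on leaving out a library, against 3 (1 without Vehicle replicate 2), and 4 with the block, where KIF7 was called lower (-0.36, adjusted p = 0.0437), and 4 with no count filter, where KIF19 was. Other kinesins called became 5 under upper quartile scaling, library size alone and the block, against 3. Transport partners called, 7 in all, became 4 with no count filter, 14 with the block, and 2 to 7 on leaving out a library (3 without ITC replicate 2, 2 without Vehicle replicate 2). Dynein and dynactin genes called, 5 in all, became 11 with the block and 3 to 6 on leaving out a library (3 without Vehicle replicate 2). Intraflagellar genes called, 7 in all, became 4 on both log2 FPKM scales and 3 to 8 on leaving out a library (3 without ITC replicate 1 or 2, 4 without Vehicle replicate 3). The cause of these moves was not tested. Deviations of same-numbered libraries correlated at 0.268, 0.00733 and 0.384, and those of differently numbered libraries at -0.338 to 0.0697. The replicate numbers are not stated to mark batches, so the main test took no pairing from them and the replicate block is an alternative. The block moved all calls to 8416, against 6599. Low counts limit KIF6, whose call depended on the setting, and the 5 genes under the filter, of which KIF19 was called without it.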
